A study of Mus musculus with 18 samples.

Results

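The ATP-binding cassette (ABC) genes encode proteins that use ATP, most of them to pump lipids, bile salts, drugs, peptides or metals across a membrane. They were taken here by name alone, as every gene whose name on the array reads Abc, a letter from a to g, and a number. This gave 50 of the 28067 gene names on the array, carried by 98 of 41109 gene probes, of which the one brightest on average stood for each gene. RNA had been measured on 18 single-colour Agilent mouse arrays, 3 in each of 6 groups, all labelled strain C57BL/6. The iISC group was budding organoids (hollow, crypt-bearing epithelial cultures) grown from induced intestinal stem cells, and the crypt group was budding organoids grown from adult intestinal crypts. The iFIPC group was a mix of spherical and budding organoids from induced fetal intestinal progenitor cells, and the FI group was the same mix from fetal intestinal progenitor cells. The iHep group was hepatocyte-like cells made from mouse embryonic fibroblasts, and the MEF group was the fibroblasts. The titles mark the iHep and MEF arrays as a re-analysis. By the series title the induced intestinal cells were made from mouse fibroblasts. The labels name no introduced factor, although published conversions of fibroblasts to such cells, given here as background, use Hnf4a among other factors. No age, sex, culture or clone is given, and the codes in the iHep titles (4α1 to 4α3) are not explained there. Nothing in the labels says that replicates came from separate cultures, so p-values measure the spread between these samples, which may be technical. The iHep arrays, whose codes differ, may instead be different conversions, and they were treated as replicates.

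ABC transporters divide the work of lipid and bile handling between liver and gut. In hepatocytes and enterocytes, pumps of the apical membrane send conjugated organic anions (Abcc2), plant sterols and cholesterol (the Abcg5 and Abcg8 heterodimer), drugs (Abcb1a, Abcb1b, Abcg2) and, in liver, bile salts (Abcb11) and phosphatidylcholine (Abcb4) into bile or the gut lumen. Basolateral pumps such as Abcc3 and Abcc4 send anions to the blood, and Abca1 loads cholesterol and phospholipid onto apolipoprotein A-I. A few relatives are no pumps: Abcc8 and Abcc9 are subunits of ATP-sensitive potassium channels, and Abce1 and the Abcf proteins are soluble and act with ribosomes.

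Promoter sequences are shown for 6 members chosen for the sterol pair with a common promoter, the P-glycoprotein paralogs, a canalicular pump and a lipid exporter, taken from RefSeq on GRCm38.p6, a build that differs from that of the arrays. A window was at hand for 38 of the 50 members. Abcg5 and Abcg8 are transcribed away from each other, and the 109 bases between their starts (chr17:84683012-84683120, read on the minus strand towards Abcg5) are a promoter that both share. The paralogs Abcb1a (chr5:8566841-8567090, plus strand) and Abcb1b (chr5:8797897-8798146, plus strand) encode the drug pump P-glycoprotein in mouse. Abcc2 (chr19:43782058-43782307, plus strand) and Abca1 (chr4:53159896-53160145, minus strand) had opposite patterns over the groups. The last 4 are the 250 bases before the start. Capitals mark 4 motifs searched on both strands. They are AGATAA, known as a binding motif of GATA factors. The next is TATAAA, the usual form of the TATA box. Another is GGGCGG, the GC box known for binding Sp1. The last is CACGTG, the canonical E-box.
Abcg5 and Abcg8, between the starts: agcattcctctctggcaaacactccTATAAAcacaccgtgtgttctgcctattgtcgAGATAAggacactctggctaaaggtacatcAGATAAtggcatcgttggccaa
Abcb1a: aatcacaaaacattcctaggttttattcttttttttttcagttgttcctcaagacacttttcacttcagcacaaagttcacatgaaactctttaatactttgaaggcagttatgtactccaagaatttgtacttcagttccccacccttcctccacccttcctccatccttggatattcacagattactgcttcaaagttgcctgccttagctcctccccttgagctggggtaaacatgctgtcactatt
Abcb1b: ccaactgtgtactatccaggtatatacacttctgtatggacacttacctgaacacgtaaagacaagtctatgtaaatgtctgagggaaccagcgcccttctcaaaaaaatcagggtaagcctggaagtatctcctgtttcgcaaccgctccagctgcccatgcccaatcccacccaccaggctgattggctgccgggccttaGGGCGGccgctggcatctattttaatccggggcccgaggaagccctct
Abcc2: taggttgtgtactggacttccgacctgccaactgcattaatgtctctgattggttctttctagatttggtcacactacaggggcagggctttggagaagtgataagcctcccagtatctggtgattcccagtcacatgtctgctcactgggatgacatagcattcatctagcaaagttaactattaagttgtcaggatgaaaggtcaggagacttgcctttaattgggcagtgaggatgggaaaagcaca
Abca1: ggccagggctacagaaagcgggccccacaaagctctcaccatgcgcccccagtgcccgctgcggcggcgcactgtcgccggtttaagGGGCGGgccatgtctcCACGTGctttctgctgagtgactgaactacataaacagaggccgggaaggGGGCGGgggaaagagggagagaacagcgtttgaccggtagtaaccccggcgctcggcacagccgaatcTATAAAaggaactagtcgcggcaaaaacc
The Abcg5 and Abcg8 interval held AGATAA at 2 places and TATAAA at 1. AGATAA is found in 11.1% of the 45 member windows and in 9.99% of all 32851 windows of 250 bases, and TATAAA in 11.1% and 12.4%. Windows of both Abcg5 and Abcg8 cover the printed interval, which is shorter than a window, so its matches count more than once among the member windows. GGGCGG, present before Abcb1b and Abca1, is found in 44.4% of the member windows and 32.7% of all windows. CACGTG, present before Abca1, is found in 11.1% and 6.02%. None of the 4 motifs was found before Abcb1a or Abcc2. A match is a description of letters and says nothing here of binding.

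Levels are log2 intensities relative to the 75th percentile of the gene probes on the same array, so 0 is a probe at that percentile, and levels of different genes are not set against each other. A probe well above background was brighter than its local background by the scanner software's own test, and the dimmest such probe on an array had a level of -7.10 to -5.73. The MEF and iHep arrays had been scanned and extracted with another scanner model and software version than the organoid arrays, so cell type and array set cannot be told apart in any comparison of organoids with MEFs or iHep cells. As a yardstick, 8 spiked-in control RNAs were brighter on the MEF and iHep arrays by 0.314 to 1.2 log2 units (median 0.906). MEF arrays 2 and 3 were nearly identical: the robust spread (scaled median absolute deviation) of their log2 differences was 0.073, against 0.197 to 0.536 in the other 17 pairs of replicates and 0.0914 expected from spot noise. The plain SD of these differences, 0.212, was above the spot noise and below the 0.288 to 0.833 of the other pairs. Since this pair was closer than every other, their mean was used as 1 sample. This left 17 samples and 2 MEF values per gene, MEF 1 and the mean of MEF 2 and 3. The 4 epithelial markers (Cdh1, Epcam, Krt8, Krt18) were well above background on every array of the organoids and iHep cells. All 7 intestinal markers were so in the organoids, against 3 of 7 in iHep cells, and all 5 hepatocyte markers were so in iHep cells. iHep cells also held all 6 fibroblast markers, at a mean level over the list of 0.82 to 2.39, against 5.50 to 5.87 in MEFs. In this bulk RNA, fewer cells of a type and less RNA per cell cannot be told apart. The first iFIPC sample was the lowest organoid for Abcg5, Abcg8, Abcc2 and Abcg2, whose iFIPC changes are given with and without it.

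Of the 50 ABC genes, 25 were well above background on all 18 arrays, 23 on some, and 2 (Abca16 and Abcb5) on none. The number of members well above background on every array of a group was 33 in iISC, 34 in crypt, 33 in iFIPC, 34 in FI, 33 in iHep and 31 in MEF. By group mean, 15 members were highest in crypt organoids, 12 in iHep cells, 9 in MEFs, 7 in iISC organoids, 4 in FI organoids and 3 in iFIPC organoids. This tally includes genes at background, such as Abca16 (counted for iHep) and Abcb5 (counted for iISC), and was not set against all genes. Among the 25 members always detected, the range over the 6 group means was 0.217 (Abce1) to 5.7 (Abcc3) log2 units with a median of 1.78. Over the 4 organoid groups alone the range was 0.146 (Abcf1) to 2.3 (Abcg1), with a median of 0.902, and 15 of the 25 stayed within 1 log2 unit. The median SD between replicates of these genes was 0.217 in iISC, 0.277 in crypt, 0.206 in iFIPC, 0.217 in FI, 0.308 in iHep and 0.179 in MEF.

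**Figure D1:**
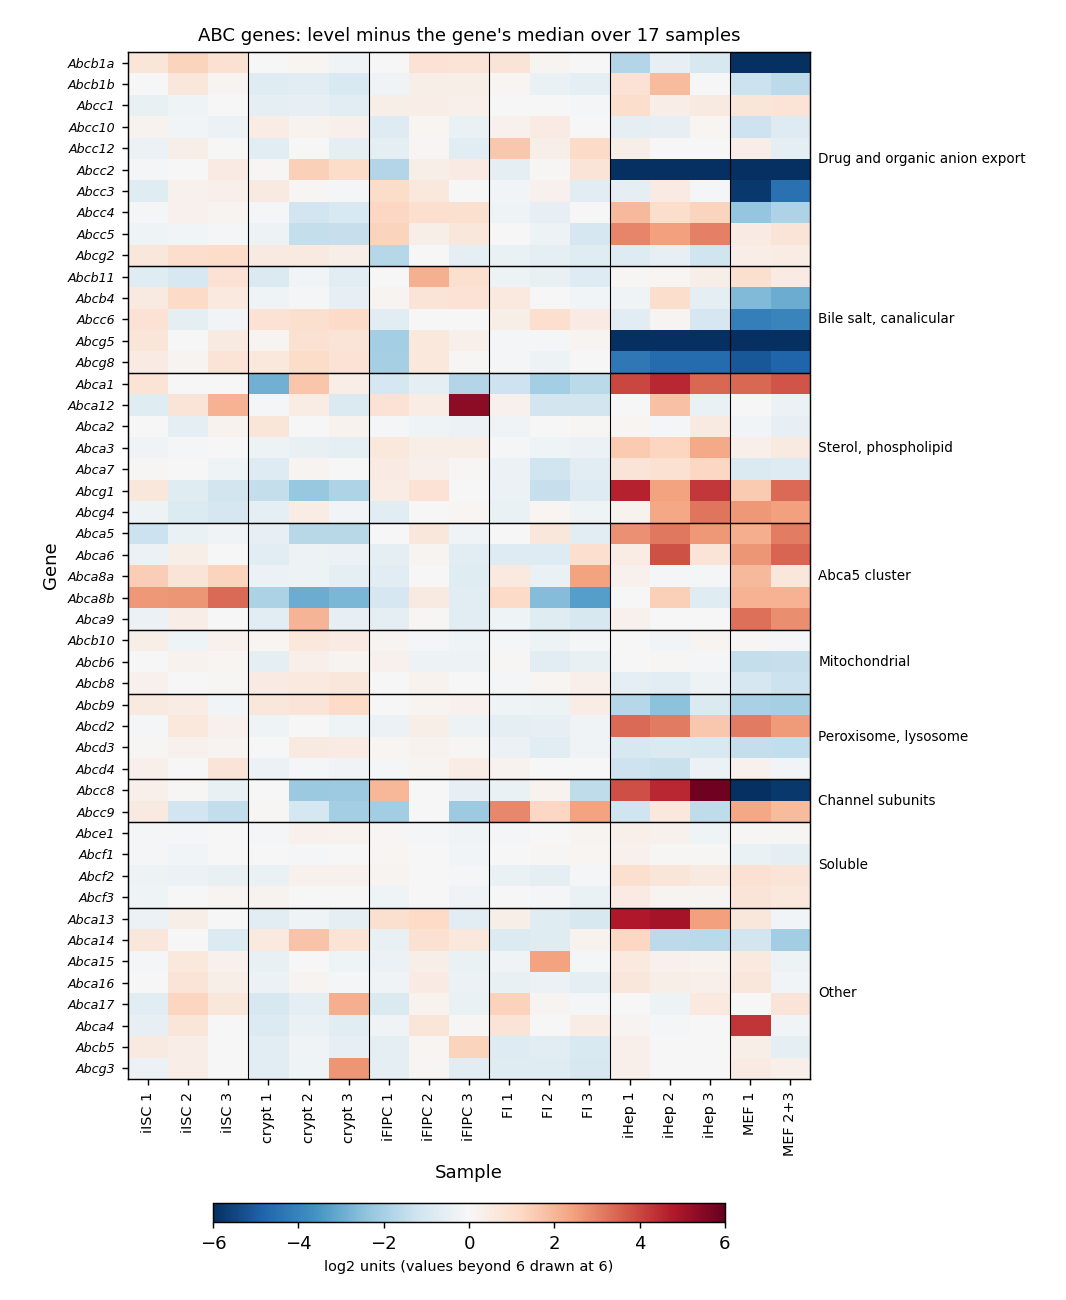
Level of the ABC genes (rows, by role, each gene shown under its first role) in the 17 samples (columns, MEF 2 and 3 averaged), as log2 units above (red) or below (blue) the gene's median over the samples, with values beyond 6 drawn at 6. Abcb1a, Abcc2, Abcg5 and Abcc8 are darkest in MEF columns, Abcc2 and Abcg5 also in iHep columns, and Abca1 and Abca5 are deepest red in iHep and MEF columns.

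A gene entered the test of a comparison if 1 of the groups compared had its probe well above background throughout, and was called at an adjusted p (limma, Benjamini-Hochberg over all genes tested) under 0.05 with a log2 change of at least 1. The question of the iHep comparison is which genes changed on conversion of fibroblasts to hepatocyte-like cells. Of 38 members tested, 17 were called in iHep cells against MEFs, or 44.7%, where 26.9% of all genes tested were called. Of these, 13 were higher and 4 lower in iHep cells (all genes 12.2% higher and 14.7% lower). In iFIPC organoids against MEFs, 16 of 38 members were higher (all genes 19.6%) and 8 lower (all genes 22.5%), or 63.2% in all where all genes gave 42.1%. In iISC organoids against MEFs, 15 of 38 were higher (all genes 22.4%) and 9 lower (all genes 24.9%), or 63.2% in all where all genes gave 47.3%. Both of these share the MEF samples with the iHep comparison. The median log2 change of the members tested was 0.53, 0.23 and 0.45 in these 3 comparisons, against -0.07, -0.03 and -0.01 over all genes tested. Against iHep cells, 7 of 34 members were higher and 7 lower in iFIPC organoids (41.2%; all genes 33.8%, of which 16.5% higher and 17.3% lower). In iISC organoids 9 of 35 were higher and 10 lower than in iHep cells (54.3%; all genes 39.8%, of which 19.6% higher and 20.2% lower). Between the organoids the calls were few. In iISC against crypt, 3 of 35 members were higher and 0 lower (8.57%, all genes 2.94%, of which 1.72% higher and 1.22% lower). In iFIPC against FI, 3 of 34 were higher and 1 lower (11.8%, all genes 10.1%, of which 5.04% higher and 5.06% lower). In crypt against FI, 1 of 35 was higher and 1 lower (5.71%, all genes 8.2%, of which 2.81% higher and 5.4% lower). In iISC against iFIPC, 1 of 34 was higher and 0 lower (2.94%, all genes 7.4%, of which 3.06% higher and 4.34% lower). In all, 32 members were called in at least 1 comparison, 31 of them in a comparison with MEFs or iHep cells and 9 in a comparison between organoids. A single slide held MEF 1 with the 3 iHep arrays, and within it 9 of the 17 calls in iHep cells against MEFs were made.

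**Figure D2:**
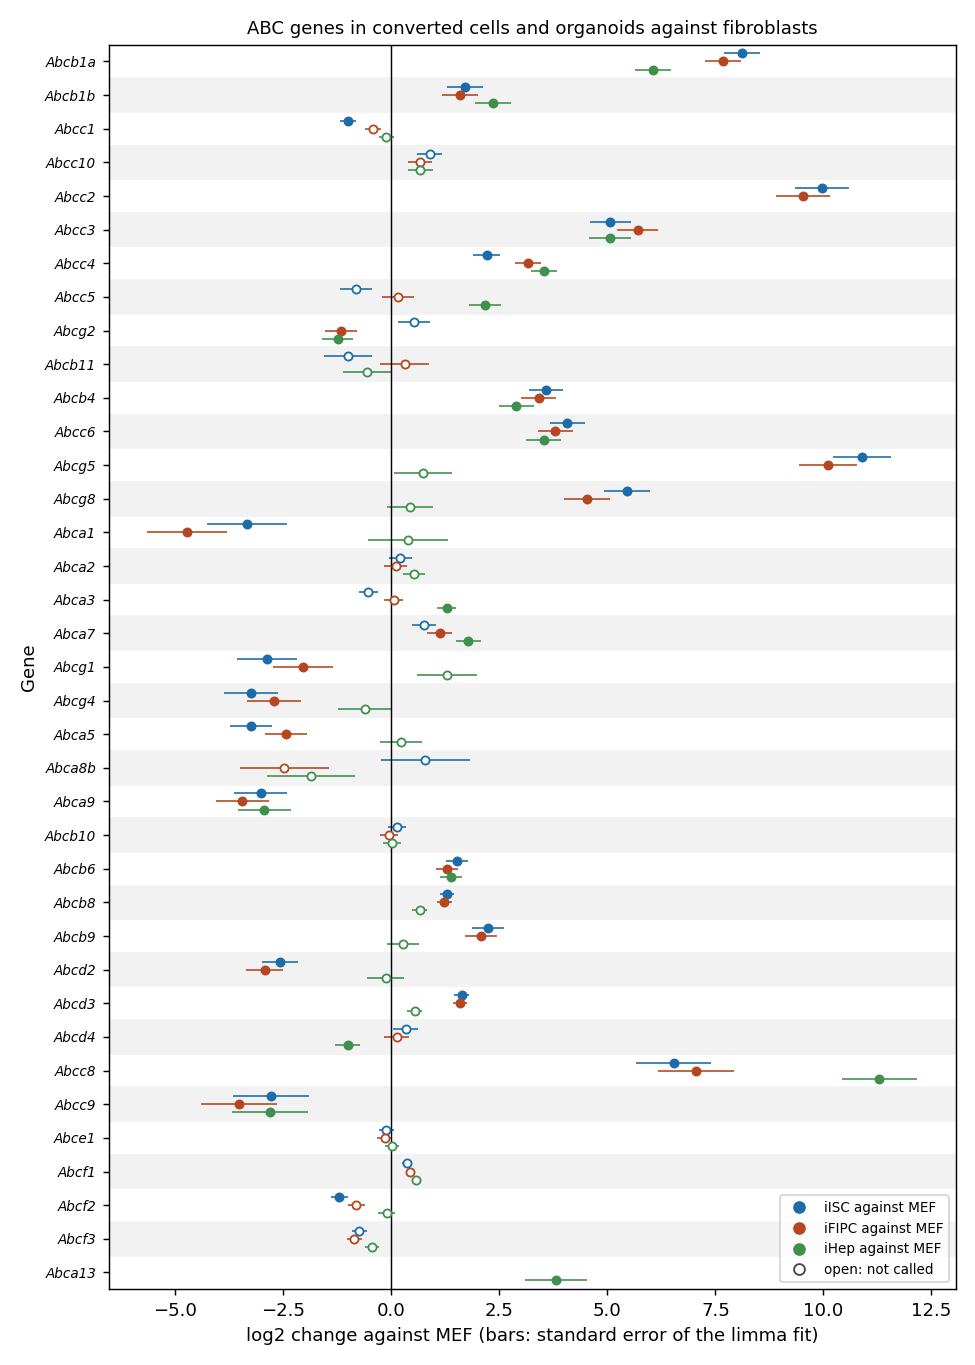
Log2 change against MEFs (horizontal axis) of ABC genes tested in iISC (blue), iFIPC (orange) or iHep (green), with bars for the standard error of the limma fit and open points where the change was not called. Abcb1a, Abcc3, Abcb4, Abcc6 and Abcc4 lie to the right in all 3 colours, while the points of Abcg5, Abcg8 and Abcc2 lie far right for the organoids only.

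The canalicular and sterol-exporting members gave the widest gaps between the organoids and the other cells. Abcg5, which pairs with Abcg8 to pump sterols into bile and gut lumen (probe at chr17:85057604-85057663 on mm9), had levels of 5.45, 4.73 and 5.25 in iISC organoids and 4.90, 5.64 and 5.51 in crypt organoids. It had 2.68, 5.36 and 5.02 in iFIPC organoids and 4.63, 4.68 and 4.89 in FI organoids. In iHep cells it had -5.26, -4.05 and -5.74, and in MEFs -5.26 and -6.25, where 2 of the 3 arrays were above background. Every organoid sample thus lay far above every iHep and MEF sample, and iHep cells and MEFs overlapped. The log2 change against MEFs was 10.90 (SE 0.67) in iISC organoids and 10.11 (SE 0.67) in iFIPC organoids, with adjusted p of 1.62e-08 and 4.21e-08. Against iHep cells it was 10.16 (SE 0.60) in iISC and 9.37 (SE 0.60) in iFIPC. Without the first iFIPC sample, the lowest organoid of all, the iFIPC changes were 10.94 against MEFs and 10.20 against iHep cells. With another background correction (normexp) the changes in iISC and iFIPC were 8.45 and 7.67 against MEFs, and 8.25 and 7.48 against iHep cells.

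Abcg8, the other half-transporter of the pair (probe at chr17:85094401-85094460 on mm9), had levels of -0.81, -1.14 and -0.51 in iISC, -0.67, -0.23 and -0.42 in crypt, -3.32, -0.69 and -1.22 in iFIPC and -1.41, -1.63 and -1.31 in FI organoids. It had -5.61, -5.95 and -5.92 in iHep cells and -6.40 and -6.13 in MEFs, where 2 of the 3 arrays were above background. As for Abcg5, every organoid sample was above every iHep and MEF sample, and the first iFIPC sample was the lowest organoid. The changes of Abcg8 were 5.45 in iISC and 4.52 in iFIPC against MEFs (SE 0.53 each), and 5.01 and 4.08 against iHep cells (SE 0.48 each). Without the first iFIPC sample the iFIPC changes were 5.31 and 4.87. With normexp background correction the changes of Abcg8 in iISC and iFIPC were 2.77 and 2.02 against MEFs, and 2.73 and 1.97 against iHep cells. Its second probe was above background on all organoid arrays and on no iHep or MEF array. The pair shares the promoter interval printed above.

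Abcc2 (MRP2, the apical pump for conjugated bilirubin and drugs, probe at chr19:43912079-43912138 on mm9) had levels of 1.45, 1.59 and 2.09 in iISC, 1.65, 3.02 and 2.67 in crypt, -0.19, 1.93 and 2.07 in iFIPC and 1.00, 1.63 and 2.35 in FI organoids. No iHep array (-7.87, -8.22 and -8.24) and no MEF array (-7.76 and -8.77) was above background. Where no array of a group was above background, the fold change is given as a lower bound against the dimmest probes above background there, here and in what follows. Against iHep cells the bound for Abcc2 was at least 217-fold higher in iISC and at least 160-fold higher in iFIPC organoids, with adjusted p of 1.29e-08 and 3.12e-08. Against MEFs the bounds were 245-fold in iISC and 180-fold in iFIPC. These bounds hold for the processed signal: with normexp background correction the log2 changes of Abcc2 were 5.37 and 4.96 against iHep cells and 5.33 and 4.92 against MEFs, in iISC and iFIPC. Without the first iFIPC sample, the lowest organoid, the fitted log2 change in iFIPC was 10.11 against iHep cells and 10.26 against MEFs, where it was 9.38 and 9.53 with it. The iHep cells thus had no Abcc2 signal above background while their 5 hepatocyte markers were above it on every array.

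Abcc3 (MRP3, a basolateral pump for bile salts and glucuronides) and Abcb4 (MDR2, the phosphatidylcholine floppase) were higher in iHep cells as well. Abcc3 had levels of 2.55, 3.57 and 3.62 in iISC, 3.85, 3.37 and 3.18 in crypt, 4.39, 3.94 and 3.30 in iFIPC, 3.16, 3.56 and 2.61 in FI and 2.72, 3.81 and 3.18 in iHep samples. It had -2.49 and -1.16 in MEFs, below all others. It rose by 5.06 (SE 0.48) in iHep, 5.70 (SE 0.48) in iFIPC and 5.07 (SE 0.48) in iISC against MEFs. Abcb4 had 2.64, 3.25 and 2.68 in iISC, 1.83, 1.96 and 1.61 in crypt, 2.25, 2.87 and 2.95 in iFIPC, 2.66, 2.09 and 1.91 in FI, 1.86, 3.13 and 1.5 in iHep and -0.56 and -0.88 in MEFs. The changes against MEFs were 2.89, 3.41 and 3.58 for iHep, iFIPC and iISC (SE 0.40 each). Abcc6, a pump of liver and kidney that keeps tissues from calcifying, was above background on every array but those of MEFs. Its levels were -3.02, -4.49 and -4.09 in iISC, -3.02, -2.94 and -2.76 in crypt, -4.58, -3.93 and -3.90 in iFIPC, -3.53, -2.90 and -3.42 in FI, -4.55, -3.76 and -4.91 in iHep and -8.00 and -7.88 in MEFs. Against MEFs Abcc6 was at least 5.14-fold, 4.24-fold and 3.52-fold higher in iISC, iFIPC and iHep. With another background correction (normexp) its log2 changes shrank to 0.70, 0.45 and 0.64. Abcb11, the bile salt export pump of hepatocytes, was dim everywhere, with group means of -5.66 (iISC), -5.93 (crypt), -4.35 (iFIPC), -5.89 (FI), -5.22 (iHep) and -4.66 (MEF), and was called in no comparison. Of the 7 members in this role, 3 of 6 tested were called higher in iHep cells against MEFs (all genes 12.2%). In each of the iFIPC and iISC comparisons with MEFs, 6 of 7 tested were called higher (all genes 19.6% and 22.4%). None was called lower in these comparisons. Of the 7, Abcc2 and Abcc6 were above background on no MEF array, and Abcg5 and Abcg8 on 2 of 3. These genes entered the tests of organoids against MEFs only through the organoids, so they could hardly be called lower there. The median log2 changes of those tested, which include such dim MEF values, were 1.81, 4.52 and 5.07.

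**Figure D3:**
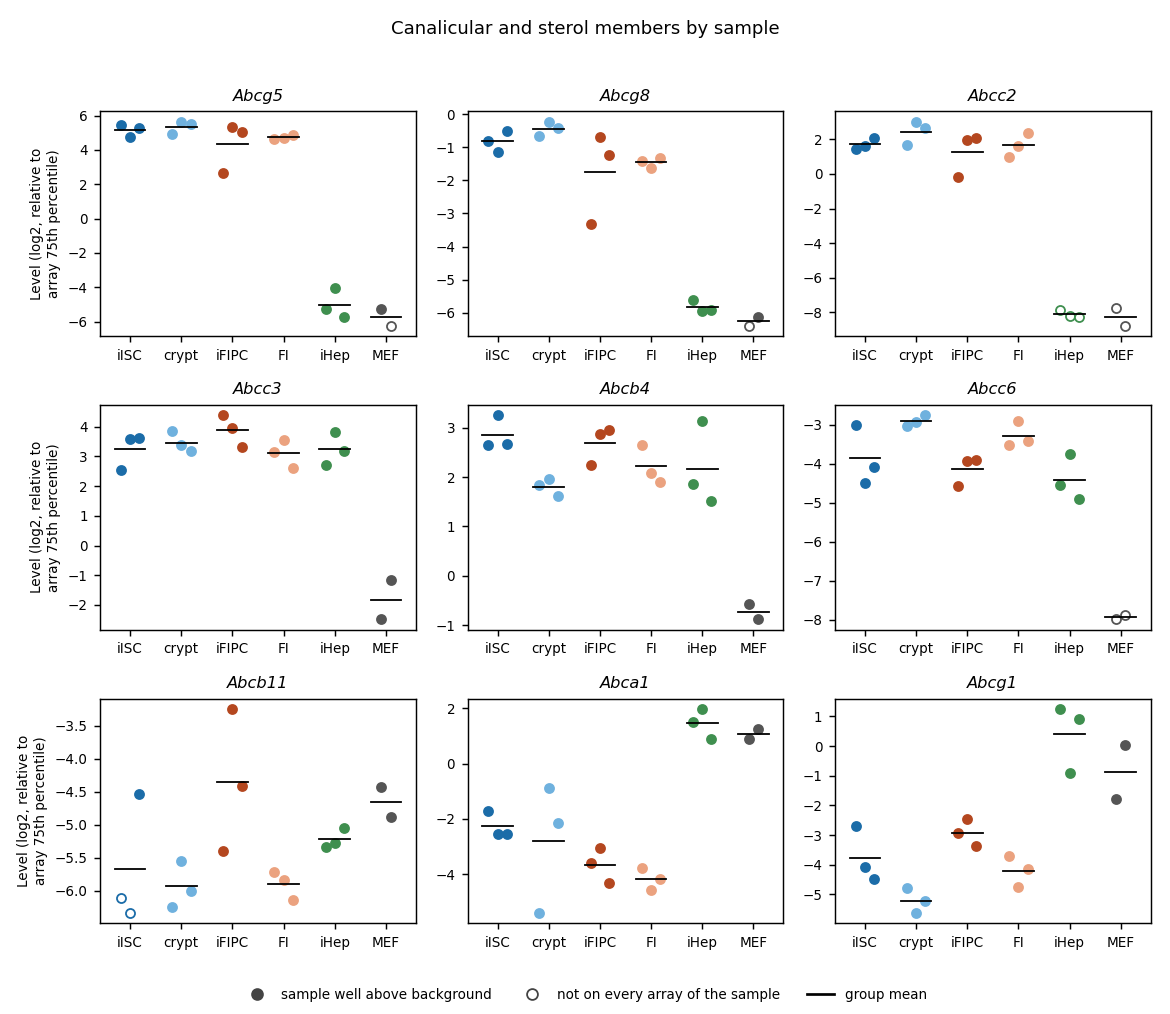
Levels (log2, relative to the array's 75th percentile) of 9 canalicular and sterol members in each sample by group, with filled points well above background, open points not so on every array of the sample, and lines at group means. Abcg5, Abcg8 and Abcc2 are high in the organoids alone, Abcc3, Abcb4 and Abcc6 in all groups but MEF, and Abca1 and Abcg1 in iHep and MEF.

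The mouse has 2 P-glycoprotein genes. Abcb1a (probe at chr5:8747979-8748038 on mm9), the form of gut and brain capillaries, had levels of 0.44, 1.03 and 0.64 in iISC, -0.32, -0.16 and -0.48 in crypt, -0.31, 0.57 and 0.56 in iFIPC and 0.48, -0.12 and -0.29 in FI organoids. It had -2.04, -0.79 and -1.22 in iHep cells, against -6.82 and -8.00 in MEFs, where no array was above background. Abcb1a was at least 29.3-fold higher in iHep, at least 90.3-fold in iFIPC and at least 122-fold in iISC than in MEFs, and with normexp the log2 changes were 2.36, 3.81 and 4.21. It was also higher than in iHep cells by 1.62 in iFIPC and 2.06 in iISC organoids (SE 0.37 each). Abcb1b (probe at chr5:8865925-8865984 on mm9) was above background on all arrays. Its levels were 0.78, 1.44 and 0.92 in iISC, 0.02, 0.07 and -0.18 in crypt, 0.54, 1.09 and 1.13 in iFIPC, 0.86, 0.38 and 0.16 in FI, 1.61, 2.67 and 0.76 in iHep and -0.52 and -0.82 in MEFs. Its changes against MEFs were 2.35, 1.59 and 1.71 in iHep, iFIPC and iISC (SE 0.42 each). The call in both organoid comparisons was lost when all 3 probes of the gene were averaged, at 0.63 and 0.75. Of the others, 1 probe was above background on all arrays, with means of 0.60 in iFIPC and 0.69 in iISC, against -1.97 in MEFs. The last was above background on no organoid array.

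Abcc4 (MRP4, which exports cyclic nucleotides and bile salts) had levels of 1.07, 1.46 and 1.37 in iISC, 1.08, 0.04 and 0.26 in crypt, 2.44, 2.17 and 2.16 in iFIPC, 0.94, 0.69 and 1.18 in FI, 3.12, 2.25 and 2.52 in iHep and -1.15 and -0.67 in MEFs. It rose by 3.54, 3.17 and 2.21 in iHep, iFIPC and iISC against MEFs (SE 0.31 each), and was lower by 1.33 in iISC than in iHep (log2 change -1.33, SE 0.28). Abcc5 (MRP5, a nucleotide and cyclic GMP exporter) was highest in iHep cells, at 4.07, 3.59 and 4.15, against 1.64 and 1.90 in MEFs, a change of 2.16 (SE 0.38). Its levels were 0.88, 0.99 and 1.01 in iISC, 0.83, -0.28 and -0.26 in crypt, 2.48, 1.49 and 1.80 in iFIPC and 1.13, 0.81 and 0.12 in FI organoids. It fell by 2.98 in iISC and by 2.01 in iFIPC organoids against iHep cells (SE 0.34 each). All 3 Abcc5 probes were highest in iHep cells.

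Abcg2 (BCRP, an apical pump for drugs and urate that marks some stem cells) ran the other way. It had 3.79, 4.18 and 4.19 in iISC, 3.66, 3.66 and 3.48 in crypt, 1.40, 3.11 and 2.55 in iFIPC, 2.73, 2.55 and 2.37 in FI, 2.34, 2.60 and 1.90 in iHep and 3.50 and 3.55 in MEFs. It fell by 1.24 in iHep and by 1.17 in iFIPC against MEFs (SE 0.37 each, adjusted p 0.0149 and 0.0137), and rose by 1.77 in iISC against iHep (SE 0.33). Without MEF 1 the first 2 changes were -1.27 and -1.20 with adjusted p of 0.0633 and 0.0552, and without the first iFIPC sample the second was -0.69. Abcc1 (MRP1, the glutathione conjugate pump) was lower in iISC organoids than in MEFs by just the threshold (log2 change -1.0, SE 0.18), and the change was -0.90 without iISC 1. With normexp it was -0.96, while averaged over the 3 probes of the gene it was -1.47. Abcc10 was above background on 17 arrays with group means of -5.87 to -4.55 and was never called, and Abcc12 was above background on 1 FI array. Of the 10 members in this role, 8 were tested in iHep, 9 in iFIPC and 9 in iISC against MEFs. In each of these comparisons 6 were called, 5 higher and 1 lower. Over all genes the shares called were 26.9%, 42.1% and 47.3%.

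**Figure D4:**
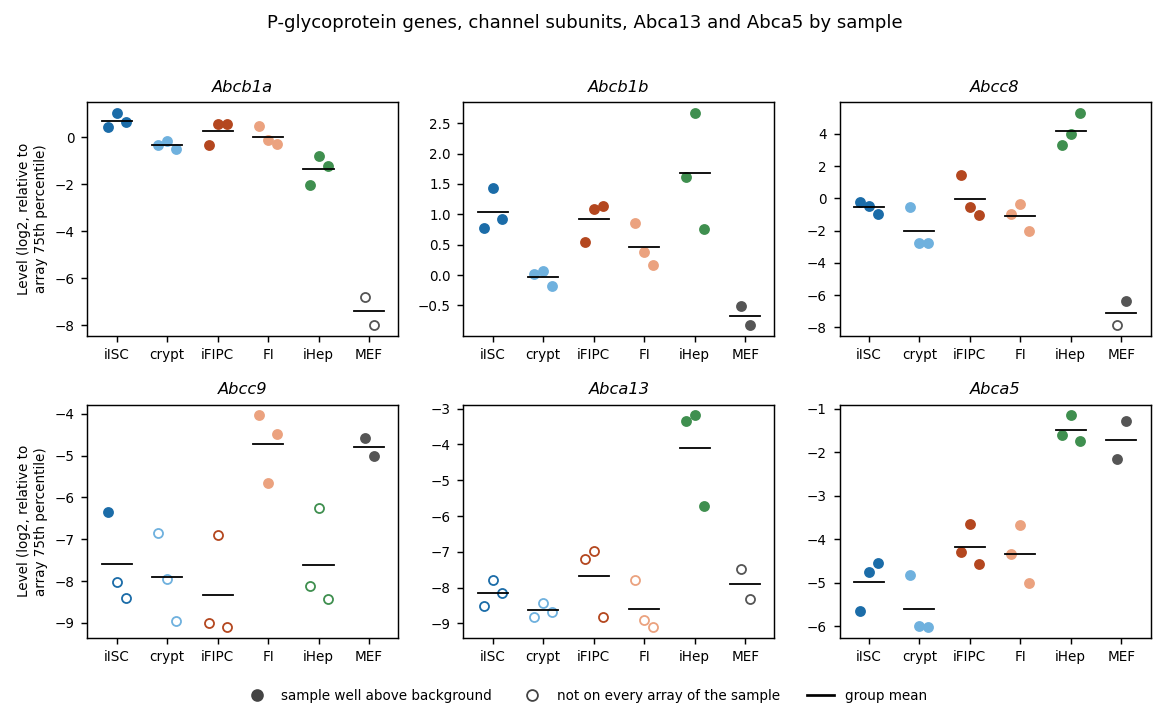
Levels (log2, relative to the array's 75th percentile) of 6 members in each sample by group, with filled points well above background, open points not so on every array of the sample, and lines at group means. Abcb1a is open only in MEF, Abcb1b is filled in every group, Abcc8 is highest in iHep, Abcc9 is filled on all samples of FI and MEF only, and Abca13 is filled in iHep only.

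Several sterol and phospholipid members were lower in the organoids. Abca1, the cholesterol and phospholipid exporter that forms high-density lipoprotein (probe at chr4:53043944-53044003 on mm9), had levels of -1.72, -2.55 and -2.54 in iISC, -5.40, -0.88 and -2.16 in crypt, -3.60, -3.06 and -4.31 in iFIPC and -3.77, -4.58 and -4.17 in FI organoids. It had 1.49, 1.98 and 0.90 in iHep cells and 0.90 and 1.24 in MEFs, all above every organoid. It fell by 4.72 in iFIPC and by 3.34 in iISC against MEFs (SE 0.92 each), and by 5.12 and by 3.73 against iHep cells (SE 0.82 each). The crypt samples spread more widely than those of any other group. Abcg1, which moves cholesterol to high-density lipoprotein, had -2.70, -4.09 and -4.48 in iISC, -4.79, -5.63 and -5.21 in crypt, -2.92, -2.47 and -3.36 in iFIPC and -3.72, -4.75 and -4.14 in FI organoids. It had 1.26, -0.92 and 0.90 in iHep cells and -1.79 and 0.04 in MEFs. It fell by 2.88 in iISC and by 2.04 in iFIPC against MEFs (SE 0.70 each), and by 4.17 and by 3.33 against iHep cells (SE 0.62 each). With MEF 1 as the only fibroblast sample the changes against MEFs were -1.97 and -1.13, with adjusted p of 0.0543 and 0.264, and without iFIPC 3 the second was -1.82 with adjusted p of 0.0633.

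Abcg4, a relative of Abcg1 best known from brain, was above background on no organoid array, at -7.49, -8.00 and -8.21 in iISC, -7.75, -6.72 and -7.35 in crypt, -7.84, -7.19 and -7.09 in iFIPC and -7.57, -7.09 and -7.44 in FI. It was above background on 2 iHep arrays (-6.97, -4.85 and -3.97) and on all 3 MEF arrays (-4.57 and -4.74). Abcg4 was at least 2.77-fold lower in iISC and at least 3.75-fold lower in iFIPC than in MEFs. With normexp the log2 changes were -0.86 and -1.03, under those bounds. Abca3, the surfactant lipid transporter of lung, was highest in iHep cells (1.42, 1.14 and 2.11), against 0.15 and 0.41 in MEFs, a change of 1.28 (SE 0.22). It had -0.35, -0.26 and -0.15 in iISC, -0.45, -0.61 and -0.66 in crypt, 0.50, 0.27 and 0.25 in iFIPC and -0.24, -0.43 and -0.50 in FI. It fell by 1.81 in iISC and by 1.22 in iFIPC against iHep (SE 0.20 each), and the second was -0.94 without iHep 3. Abca7, a phospholipid transporter linked to phagocytosis, had 3.29, 3.21 and 2.95 in iISC, 2.42, 3.37 and 3.20 in crypt, 3.69, 3.54 and 3.30 in iFIPC, 2.88, 2.04 and 2.52 in FI, 3.97, 4.11 and 4.44 in iHep and 2.34 and 2.44 in MEFs. It rose by 1.78 in iHep and by 1.12 in iFIPC against MEFs (SE 0.28 each), and fell by 1.03 in iISC against iHep (SE 0.25), or -0.89 without iHep 3 and -0.93 without iISC 3. Averaged with a second probe that was dim on nearly all arrays, no Abca7 call stood. The changes were then 0.74 in iHep and 0.43 in iFIPC against MEFs and -0.73 in iISC against iHep, with adjusted p of 0.305, 0.517 and 0.213. Abca2 was called in no comparison, with group means of -1.22 to -0.58, and Abca12, the lipid transporter of skin, was above background on 1 iISC and 1 iFIPC array. Of the 9 members in this role, which includes Abcg5 and Abcg8, 8 were tested in each comparison with MEFs. In iHep 2 were called higher (all genes 12.2%) and 0 lower (all genes 14.7%). In iFIPC 3 were higher and 3 lower (all genes 19.6% and 22.5%), and in iISC 2 higher and 3 lower (all genes 22.4% and 24.9%). The median log2 changes of those tested were 0.63, 0.08 and -0.16.

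The Abca5 cluster is a set of neighbouring lipid transporter genes on chromosome 11. Abca5, thought to act in lysosomes, was lower in the organoids: -5.64, -4.74 and -4.54 in iISC, -4.82, -5.98 and -6.02 in crypt, -4.30, -3.65 and -4.57 in iFIPC and -4.34, -3.66 and -5.01 in FI. It had -1.60, -1.15 and -1.73 in iHep cells and -2.16 and -1.29 in MEFs, with no overlap with any organoid. It fell by 3.25 in iISC and by 2.45 in iFIPC against MEFs (SE 0.49 each), and by 3.48 and by 2.68 against iHep cells (SE 0.43 each). Abca9, described from human macrophages as responsive to cholesterol, had -8.21, -8.44 and -8.48 in iHep cells, with no array above background, against -5.17 and -5.70 in MEFs, with all arrays above it. Of the other groups, 1 crypt array was above background. Abca9 was at least 1.53-fold lower in iHep, at least 2.18-fold in iFIPC and at least 1.61-fold in iISC than in MEFs. This was by 1 of its 4 probes, the other 3 being dim on every array. With normexp the log2 changes were -0.48, -0.96 and -0.78. Abca6 was above background on 2 MEF and 1 iHep arrays and Abca8a on 1 FI array, and neither was tested. Abca8b is described with the organoids.

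Among the mitochondrial members, Abcb6, a porphyrin transporter, rose by 1.38, 1.29 and 1.52 in iHep, iFIPC and iISC against MEFs (SE 0.25 each). Abcb8 rose by 1.23 in iFIPC and 1.28 in iISC (SE 0.16 each), but by less than 1 once its probes were averaged. Its other probe was above background on no array. Abcb10, needed for haem synthesis, stayed between -0.98 and -0.40 in all group means and was never called.

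Among peroxisomal members, Abcd3 (PMP70, which imports branched fatty acids and bile acid precursors) rose by 1.59 in iFIPC and 1.63 in iISC against MEFs (SE 0.17 each), and by 1.05 and 1.09 against iHep cells (SE 0.15 each), where the mean over its 3 probes gave 0.80 and 0.69. Its mean was 4.90 ± 0.10 in iISC, 5.08 ± 0.31 in crypt, 4.86 ± 0.08 in iFIPC, 4.32 ± 0.22 in FI and 3.81 ± 0.04 in iHep (SD, n = 3 each), against 3.27 ± 0.05 in MEFs (SD, n = 2). Abcd2, its very-long-chain fatty acid relative, was above background on no organoid array, on 2 iHep arrays and on all MEF arrays. Abcd2 was at least 1.43-fold lower in iISC and at least 1.93-fold lower in iFIPC than in MEFs. With normexp the log2 changes were -0.55 and -0.78. Abcb9, a lysosomal peptide transporter, rose by 2.08 in iFIPC and 2.23 in iISC against MEFs (SE 0.37 each), and by 1.81 and 1.96 against iHep cells (SE 0.33 each). Abcd4, which serves lysosomal cobalamin release, was lowest in iHep cells, at 0.57 ± 0.56 (SD, n = 3), against 1.58 ± 0.28 in MEFs (SD, n = 2). Its change of -1.01 (SE 0.29, adjusted p 0.014) was -0.81 without MEF 1, with an adjusted p of 0.123, -0.88 without iHep 1 and -0.82 without iHep 2. It was higher by 1.14 in iFIPC and by 1.34 in iISC organoids than in iHep cells (SE 0.26 each), and the first was 0.95 without iHep 2 and 0.99 without iFIPC 3.

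The potassium channel subunits had opposite patterns. Abcc8 (SUR1, the sulphonylurea receptor of beta cells and neurons) had 3.31, 4.00 and 5.28 in iHep cells, against -7.85 and -6.35 in MEFs, where 2 of 3 arrays were above background. The change of 11.30 (SE 0.87, adjusted p 4.47e-07) was the largest of any member in that comparison. In the organoids it had -0.23, -0.47 and -0.99 (iISC), -0.54, -2.76 and -2.74 (crypt), 1.44, -0.53 and -1.04 (iFIPC) and -0.94, -0.33 and -2.04 (FI), between the iHep and MEF samples without overlap. It was thus higher than in MEFs by 7.05 in iFIPC and 6.54 in iISC (SE 0.87 each). Against iHep cells it fell by 4.25 in iFIPC and fell by 4.76 in iISC (SE 0.78 each). With normexp the changes of Abcc8 against MEFs were 7.82 in iHep, 3.72 in iFIPC and 3.19 in iISC. Kcnj11, the pore subunit that pairs with Abcc8 in beta cells, had -3.36, -3.07 and -2.71 in iHep cells, against -5.01 and -8.48 in MEFs, a change of 3.70 (SE 0.84). Abcc9 (SUR2, of muscle and vessel walls, probe at chr6:142537737-142537796 on mm9) was above background on no iHep array (-8.12, -6.26 and -8.43), against all MEF arrays (-4.59 and -5.01). It was at least 2.38-fold lower in iHep and at least 3.39-fold lower in iFIPC than in MEFs. In iISC organoids, where 1 array was above background, the fitted change was -2.79 (SE 0.88). With normexp the log2 changes of Abcc9 against MEFs were -0.49 in iHep, -1.01 in iFIPC and -0.71 in iISC. The iHep call had an adjusted p of 0.111 without MEF 1 and of 0.0597 to 0.0641 without iHep 1 or iHep 3, and the iISC call one of 0.0749 without MEF 1.

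Of the 4 soluble members, 1 was called in any comparison. Abce1, which recycles ribosomes, had group means of 3.25 to 3.46 and Abcf1 of 3.70 to 4.28, and neither was called in any comparison, nor was Abcf3. Abcf2 was lower in iISC organoids than in MEFs (log2 change -1.20, SE 0.20) and against iHep cells (log2 change -1.1, SE 0.17). The second change was -0.99 without iHep 1. Of the remaining genes, Abca13, a very large lipid transporter gene, was above background on the 3 iHep arrays (-3.35, -3.18 and -5.72) and on no other by its brightest probe, and was at least 4.41-fold higher than in MEFs. With normexp that log2 change was 0.76. A dimmer probe was above background on 2 iHep arrays and 1 FI array. By the brightest probe Abca13 was at least 5.57-fold lower in iFIPC and at least 4.11-fold lower in iISC than in iHep cells. With normexp these log2 changes were -1.22 and -1.13. Abca14 was above background on 8 arrays, 3 of them in crypt, with no call. Abca4 (the retinal flippase), Abca15 and Abcg3 were above background on 1 array each and Abca17 on 2.

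Comparisons between the organoids asked how organoids from induced cells differ from those of native cells, and how the adult-type differ from the fetal-type. In iISC against crypt organoids, Abca8b had the largest change of any member. Abca8b (probe at chr11:109797045-109797104 on mm9), a lipid transporter that in mouse has been tied to cholesterol export, had levels of -2.77, -2.69 and -1.96 in iISC organoids. In crypt organoids it had -7.26, -8.33 and -8.12, with no array above background. Its level was at least 17.8-fold higher in iISC (adjusted p 0.0163). With normexp the log2 change was 1.81, under that bound, with an adjusted p of 0.00449. Its levels were -6.34, -4.81 and -6.04 in iFIPC, -4.20, -7.97 and -8.65 in FI, -5.36, -3.92 and -6.06 in iHep and -3.26 and -3.26 in MEFs. It was thus above background on all iISC and MEF arrays, on 2 arrays each of iFIPC and iHep and on 1 of FI. The second Abca8b probe, above background on 1 array, was also brightest in iISC. Of the 6 fibroblast markers, 5 (all but Col1a2) were above background on no iISC array, and the list's mean level was -7.35 to -7.02 in iISC, against -7.80 to -7.62 in crypt organoids. The list of smooth muscle and pericyte markers had a mean of -4.88 to -4.56 in iISC, against -5.44 to -5.33 in crypt organoids, with Cnn1, Des and Rgs5 above background on no array of either. Of that list, Pdgfrb had -1.86, -1.70 and -1.46 in iISC, against -3.35, -5.06 and -4.05 in crypt organoids. Acta2 (2.73 to 2.91 in iISC, 2.74 to 2.93 in crypt) and Myh11 (-6.53 to -6.08 and -6.53 to -6.27) overlapped between these groups. Kcnj8, a potassium channel subunit found in pericytes, had -0.66, -2.13 and -4.50 in iISC, against -7.56, -6.0 and -6.90 in crypt organoids, and did not pass (log2 change 4.39, adjusted p 0.0551). Their part in the Abca8b result was not tested. Against iHep cells Abca8b rose by 2.64 in iISC organoids (SE 0.92, adjusted p 0.0223). The adjusted p of that change was 0.0687, 0.059 and 0.0818 without iISC 3, iHep 1 or iHep 3.

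The other calls in iISC against crypt were the neighbours Abcb4, with a change of 1.06 (SE 0.26, adjusted p 0.0491), and Abcb1b, with 1.07 (SE 0.24, adjusted p 0.0365). All 3 iISC samples were above all 3 crypt samples for both genes by the values given above. Averaged over the probes of each gene, Abcb1b changed by 0.71 (adjusted p 0.0858) and Abcb4 by 0.42 (adjusted p 0.423), neither called. Abcb1a, the third gene of that stretch of chromosome 5, had 0.44, 1.03 and 0.64 in iISC, against -0.32, -0.16 and -0.48 in crypt, and did not pass. In iFIPC against FI, Abcc4 rose by 1.32 (SE 0.25, adjusted p 0.00734), Abcc5 by 1.24 (SE 0.36, adjusted p 0.0357) and Abca7 by 1.03 (SE 0.27, adjusted p 0.0248), and the samples of the groups did not overlap for any of them. Without the first iFIPC sample Abcc5 changed by 0.96 (adjusted p 0.107) and Abca7 by 0.94 (adjusted p 0.0703), neither called. Averaged over the probes of each gene, Abca7 changed by 0.27 (adjusted p 0.746) and Abcc5 by 1.19 (adjusted p 0.0561), neither called. Abcc9 was above background on no iFIPC array (-9.0, -6.90 and -9.10) and on no crypt array (-6.85, -7.94 and -8.94), against all FI arrays (-4.03, -5.66 and -4.48). In iISC organoids it had -6.34, -8.03 and -8.40, with 1 array above background. It was at least 3.58-fold lower in iFIPC (adjusted p 0.0121) and at least 3.75-fold lower in crypt (adjusted p 0.0257) than in FI organoids. With normexp the log2 changes were -0.78 and -0.62, under those bounds, and neither was called. Of the 6 markers of smooth muscle and pericytes, 3 were above background on every iFIPC array and 2 on every crypt array, against 3 in FI. The list's mean level was -4.69 to -4.56 in iFIPC and -5.44 to -5.33 in crypt, against -5.04 to -4.94 in FI. Their part in the Abcc9 result was not tested. The pore subunit Kcnj8, which pairs with Abcc9, was lower in crypt than in FI organoids (log2 change -4.0, SE 1.1, adjusted p 0.039), while in iFIPC against FI its change was 0.31 (SE 1.11, adjusted p 0.861). In iISC against iFIPC, Abcg2 alone was called, with a rise of 1.70 (SE 0.35, adjusted p 0.0137). The rise was 1.22 without the first iFIPC sample, with an adjusted p of 0.0095.

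**Figure D5:**
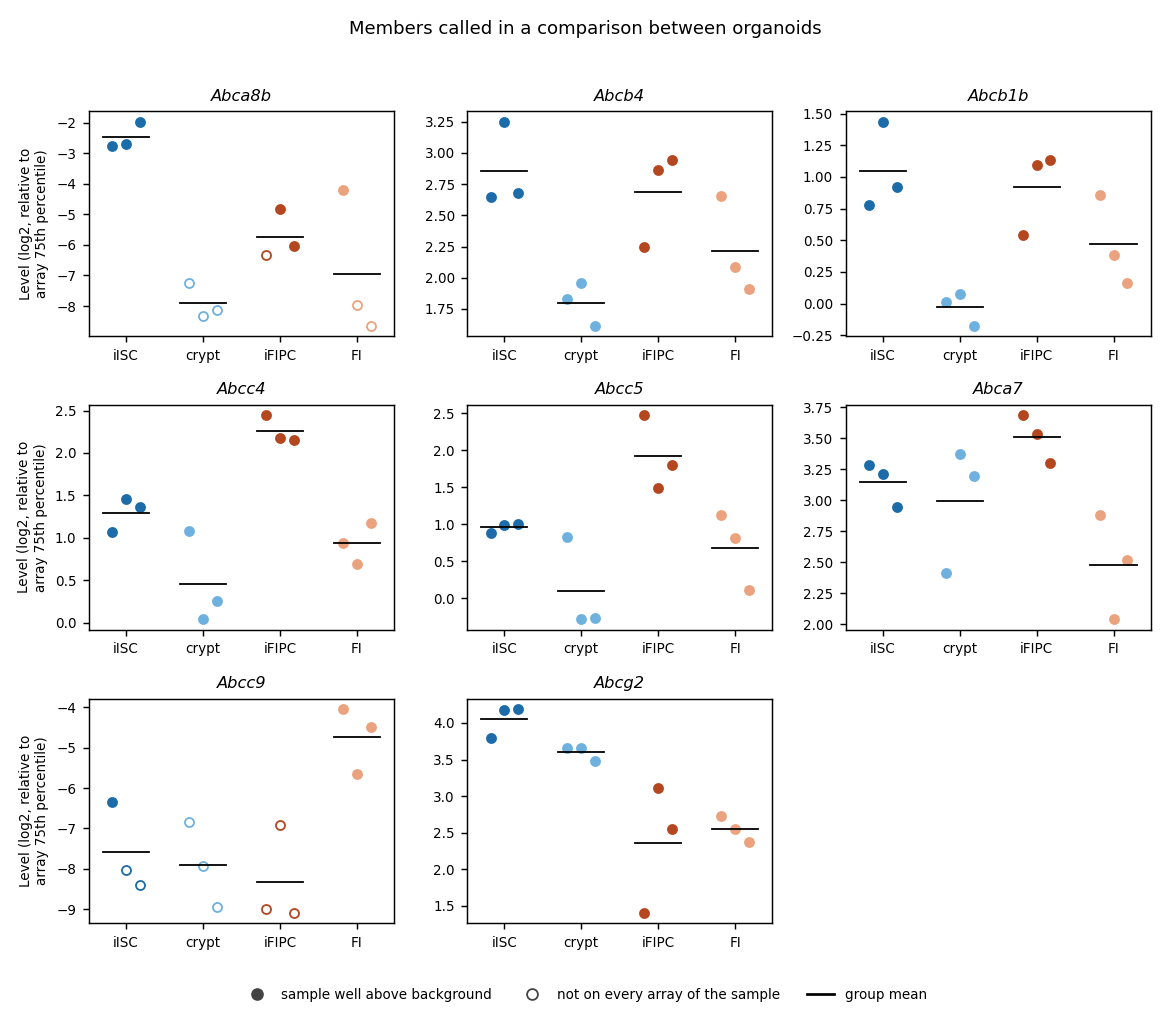
Levels (log2, relative to the array's 75th percentile) in the 12 organoid samples of ABC genes called in a comparison between organoids, with filled points well above background, open points not so, and lines at group means. Each panel has its own scale: Abca8b is filled on all iISC samples and on no crypt sample, Abcc9 on all FI samples, and Abcg2 is lowest in the first iFIPC sample.

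Few of these organoid calls stood when single samples were left out. Abcc4 and Abcc9 in iFIPC against FI and Abcg2 in iISC against iFIPC were called in all 12 fits that left out 1 organoid sample. Of these, Abcc9 lost its call with normexp. Abcb4 lost its call in 9 of the 12, Abcb1b in 7, Abcc5 in 5, Abca7 in 4, Abcc9 in crypt against FI in 4, and Abca8b in 3. For Abca8b these were the fits without iISC 3, crypt 2 or crypt 3, at changes of 5.17, 5.21 and 5.32 and adjusted p of 0.0576, 0.0712 and 0.0651. Without FI 3, the change of Abcc5 was 0.95 with an adjusted p of 0.101. The arrays lay on 3 slides, with iISC on 1 and FI on another. With slide as a term, only Abcc4 of the calls named here was still called (2.29, adjusted p 0.0265). The changes of Abca8b (4.36, adjusted p 0.418), Abcc9 (-2.73 and -2.12, adjusted p 0.312 and 0.303), and Abcg2 (0.94, adjusted p 0.3) kept their direction. No slide held both iFIPC and FI arrays, nor both iISC and crypt arrays, so these pairs could not be compared within a slide. For iFIPC against FI the term rested on the crypt arrays. Abcc4 had 1.08 in crypt 1, on the FI slide, and 0.04 and 0.26 in crypt 2 and 3, on the slide of iFIPC 1 and 3. Within the slide that held iISC 1 to 3 and iFIPC 2, Abcg2 differed by 0.94, and within the slide that held crypt 1 with FI 1 to 3, Abcc9 differed by -2.12, neither of them called. The difference of differences, iISC minus iFIPC set against crypt minus FI, was called by limma for 0 of 36 members (all genes 4.82%, of which 3.06% positive and 1.76% negative). Of the 36, 8 had an unadjusted limma p under 0.05, a share not set here against that over all genes. The lowest adjusted p was 0.0624, for Abcc9.

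Genes that are no members by name but work with them were counted from 3 lists. Cftr, an ABC protein that is a chloride channel, had 2.84, 2.95 and 3.30 in iISC organoids, against -5.35 and -6.98 in MEFs, and rose by 9.19 (SE 0.91), while the antigen peptide transporter genes Tap1 and Tap2 were lower in iISC than in iHep cells by 1.72 and 1.87 (log2 changes -1.72 and -1.87). Of 15 regulators of ABC genes, 6 were called higher and 1 lower in iHep cells against MEFs among 13 tested (all genes 12.2% and 14.7%). Nr1i2 (the xenobiotic receptor PXR) rose by 7.37 and Nr1h3 (the sterol receptor LXR alpha) by 3.58 there, and Nr2f1 was at least 5.94-fold lower. Hnf4a, a hepatocyte and gut nuclear receptor, was above background on no MEF array and was at least 52.1-fold higher in iHep, at least 587-fold in iFIPC and at least 957-fold in iISC than there. Published conversions introduce Hnf4a, and whether its probe read introduced copies in these 3 groups was not tested. In each of the iFIPC and iISC comparisons with MEFs, 9 were higher and 1 lower among 14 tested (all genes 19.6% and 22.5% in iFIPC, 22.4% and 24.9% in iISC). Nr1h4 (the bile acid receptor FXR) was above background on 1 of 3 iHep arrays (-1.58, -5.93 and -7.25), against 1 MEF array (-7.77 and -6.69), and was higher by 7.30 in iISC and 6.32 in iFIPC organoids than in iHep cells. Of 15 transport partners, 8 were higher and none lower in iFIPC, and likewise in iISC, among 12 tested against MEFs (the shares over all genes are those just given). In MEF 1, Npc1l1, Slc51a, Slc51b, Slc10a2, Ggt1, Pdzk1 and Apoa1 had -7.93 to -7.18, below the dimmest probe above background there (-5.73). These genes were tested only through the groups where they were high, so they could hardly be called lower. In iHep cells 3 partners were higher among 6 tested against MEFs, including Apoa1, the lipid acceptor of Abca1, by at least 8080-fold. Slc51b, a subunit of the basolateral bile salt exporter, was at least 303-fold higher in iISC than in iHep cells, where no array was above background. The bounds for Nr2f1, Hnf4a, Apoa1 and Slc51b hold for the processed signal and are not given with normexp, which shrank changes of members. Slc10a2, the ileal bile salt importer, had 2.08, 1.37 and 0.99 in iISC organoids, against -5.68, -4.87 and -4.40 in crypt organoids. It had -0.66, 0.40 and 1.17 in iFIPC, against -0.76, -6.41 and -5.76 in FI organoids. It rose by 6.46 (SE 1.23, adjusted p 0.0208) and by 4.61 (SE 1.23, adjusted p 0.0254), and FI 1 lay close below the lowest iFIPC sample while the other FI samples lay far below. Ppara, a fatty acid receptor, was lower in iFIPC than in FI by 2.23 (log2 change -2.23, SE 0.48) and higher in crypt than in FI by 1.73 (SE 0.48).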

How the data were processed

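The deposited array files give, per the file headers, background-subtracted and detrended intensity values (processed signal) for each of 45018 features, besides mean and background intensity values and flags of another kind (well above background, outlier, saturated). A table of the whole series that the authors deposited holds the same arrays as quantile-normalised intensity, with a median of 59.32 in each column on the linear scale, and was used as an alternative only. The submitters' processing notes name Agilent Feature Extraction 9.5.1.1 for all arrays. The file headers give that version for MEF and iHep but 10.7.1.1 for the organoids. Whether the submitters filtered the arrays is not given in the sources used here.

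Outlier-flagged spots were dropped, spots of a probe averaged, and 65 probes without a value on some array dropped. A probe was taken as well above background where at least 50% of its spots were. Log2 of the processed signal minus the array's 75th percentile gave the level. The 75th percentile ranged over 714.1 to 1484.4 intensity units between arrays, and each array had 56.1% to 68.7% of its probes above background. The number of arrays limits the precision. Names and mm9 probe positions come from the organoid files. Tests used limma 3.58.1 (lmFit, contrasts, eBayes, two-sided) in R 4.3.3, over all 17 samples for comparisons with MEF or iHep and over the 12 organoid samples otherwise, and p-values were adjusted over all genes tested. The procedure was tested on simulated data with known changes. Lower bounds of fold changes set the bright group's mean against the dim group's mean of, per array, the higher of the lowest level above background and the probe's own. Replicate numbers do not pair samples. The members, roles, related lists and marker lists were chosen with earlier results of these data known. Members were named as follows: each called member where at most 12 were called, otherwise the 6 largest changes each way and those of the role described. Sample values were given for members called between organoids, for the 3 largest changes each way in iHep against MEF, and for called canalicular and sterol members. The calls were recomputed under other background corrections, normalizations, filters, probe rules, blocks and left-out samples. Some members are counted in the totals but not reported singly here.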

Additional observations from a re-analysis of the deposited data

How the results depend on the processing

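Counts of members called are given as alternative against the count reported. In iHep against MEF (17) the count was 11 when genes had to be above background in every group compared and 9 within the slide that holds both groups. That filter, which tests fewer genes, gave 14 in iFIPC against MEF (24), 14 in iISC against MEF (24), 1 in iISC against crypt (3) and 1 in crypt against FI (2). Normexp background correction gave 0 in crypt against FI, 2 in iISC against iFIPC (1) and 1 in the difference of differences (0). Quantile normalization and the authors' normalised values each gave 3 in iISC against iFIPC. With no filter on dim probes, 1 was called in iISC against crypt. The mean over all probes gave 1 in iISC against crypt, 2 in iFIPC against FI (4), 4 in iISC against iFIPC and 1 in the difference of differences. eBayes with trend and robust gave 2 in iISC against iFIPC. All 17 samples in the fit gave 1 in iISC against crypt and 2 in iISC against iFIPC. Slide as a term gave 0 in iISC against crypt, 2 in iFIPC against FI, 0 in crypt against FI and 0 in iISC against iFIPC, and fits within 1 slide gave 0 in iISC against iFIPC and 0 in crypt against FI. The cause of these shifts was not tested beyond the construction of each setting.

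Leaving out single samples gave 14 to 18 calls in iHep against MEF, 22 to 25 in iFIPC against MEF, 23 to 26 in iISC against MEF, 13 to 15 in iFIPC against iHep, 17 to 21 in iISC against iHep, 0 to 4 in iISC against crypt, 2 to 5 in iFIPC against FI, 0 to 5 in crypt against FI, 1 to 2 in iISC against iFIPC and 0 to 3 in the difference of differences. The fit without MEF 2 and 3 together and the choice of the brightest probe over the organoids alone were added after seeing the data.

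Replicate numbers share no more than a number: the correlations of same-numbered deviations ran from -0.243 to 0.198 over the comparisons. With the replicate number as a block, 1 member was called in iISC against crypt, and no other count moved by over 1.5 times. Of 108 calls of single members, 64 stood under every alternative run for them, 44 lost the call under at least 1, and 0 turned direction. Dim probes limit the rest: with normexp the changes of Abcc6, Abca13, Abca9, Abcc9, Abcd2 and Abcg4 fell below 1 in size in at least 1 comparison. All of them were near background in 1 of the groups. Larger changes shrank by normexp too, to 7.82 for Abcc8 in iHep against MEF and to 5.33 for Abcc2 in iISC against MEF.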

Other observations

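Probes of the same gene did not always tell the same story in iHep cells. A second Abcb4 probe was above background on the 3 iHep arrays (mean level -4.85) and on none of the other 15, with means of -8.45 to -7.92 in the other groups, although the brighter Abcb4 probe was above background on all 18 arrays. A dim Abcb1b probe was above background on the 3 iHep arrays (mean -3.44) and 2 MEF arrays (mean -6.18) and on no organoid array (means -8.48 to -8.20), although its other 2 Abcb1b probes were above background everywhere. The second Abcc8 probe was above background on the 3 iHep arrays (mean -4.47), 1 iFIPC array and 1 crypt array. These probes were picked out after their values were seen, and what they bind was not tested.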
